A study of Mus musculus with 20 samples.

Results

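Liver RNA of the Fob3b and F mouse lines was compared directly on 4 spotted cDNA arrays of the second of the study's array designs. These are the 4 arrays, of 20 in the series, whose channels are labelled liver of the Fob3b line and liver of the F line with the same pool number on this design. The F line is a mouse line selected for high fat content, and the Fob3b line carries, on the F background, alleles of a lean line at Fob3b, an obesity locus on chromosome 15. The labels name no transgene and no treatment. The sources used here do not give the age, sex or diet of the animals, or how many were pooled. Each line was represented by 2 liver RNA pools, so animals cannot be seen singly. Fob3b pool 1 was hybridised with F pool 1, and Fob3b pool 2 with F pool 2, each in both dye orientations. The arrays of a pool pair share their RNA and were averaged, which leaves n = 2 pool pairs. The p-values here set a mean against the spread between pool pairs, which was taken mostly over all clones together. Whether the pools of a line came from separate animals is not stated either.

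What was deposited is the log ratio of the dyes at every spot, read as log2, with no intensities. Whether red or green is the numerator is not stated. If it is red, a positive value stands for more RNA in the Fob3b line. If it is green, it stands for more RNA in the F line, and every sign given here turns. Ratios are relative to the median spot of an array, and a log2 ratio of 1 is a 2-fold difference. The design held 7680 clones, each spotted as a pair, of which 4855 were annotated with 1 gene, 274 with several and 2551 with none. In all 4075 genes were measured, 3425 of them by 1 clone. Over the 4 arrays the SD over clones ran from 0.155 to 0.274, and the spots of a clone correlated at 0.712 to 0.865. Between arrays the reproducibility was lower. Turned by label, the dye orientations of pool pair 1 correlated at 0.08 over the clones, and those of pool pair 2 at 0.40. Differences between printing blocks made up 12.1% to 46.8% of the variance over clones. The number of arrays limits the precision.

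The liver makes fatty acids and cholesterol from acetyl-CoA when fuel is plentiful, and burns fatty acids in mitochondria and peroxisomes when it is not. Synthesis runs through the cytosolic fatty acid synthase and the sterol pathway, both of which draw on NADPH, and is switched on by transcription factors of the SREBP family. Oxidation begins with the transport of long-chain acyl groups into mitochondria by carnitine palmitoyltransferases. Genes of these pathways are the usual candidates in comparisons of fat and lean lines.

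In the liver, Fasn, the multienzyme that builds palmitate from malonyl-CoA, was the gene with the clearest difference on the positive side. In pool pair 1 its log2 ratio was 0.39 with Fob3b in green and 0.74 with Fob3b in red. In pool pair 2 these were 0.67 and 0.70. All 4 arrays lay on the positive side, and the 8 single spots ran from 0.37 to 0.79. The mean was 0.63 ± 0.09 (SD, n = 2 pool pairs), a 1.55-fold difference with an adjusted p of 0.0422 in limma. Msmo1, the sterol methyl oxidase that removes methyl groups at C-4 on the way to cholesterol, had the largest mean of all clones annotated with 1 gene and of 1 sign on the 4 arrays. Its clone 23191 had 0.56 and 0.24 in pool pair 1 and 1.17 and 1.15 in pool pair 2. The groups of arrays did not overlap: pool pair 2 lay well above pool pair 1. The mean of 0.78 ± 0.54 (SD, n = 2) therefore did not pass, with an adjusted p of 0.0895 in limma. The other Msmo1 clone, 17442, read lower, with 0.04 and 0.07 in pool pair 1 and 0.31 and 0.43 in pool pair 2, again on the positive side of all 4 arrays and again higher in pool pair 2.

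The promoters of Fasn and Msmo1 are shown because these lipid synthesis genes lay on the positive side on every direct array. Each line gives the 250 bases before the gene's start, 5′ to 3′ on the gene's strand, from RefSeq on build GRCm38.p6. Capitals mark the CCAAT box, the letters bound by the factor NF-Y, searched as CCAAT and as ATTGG for the other strand, with overlapping matches joined. Fasn lies at chr11:120824548-120824797 and Msmo1 at chr8:64733579-64733828, both on the minus strand.
Fasn promoter: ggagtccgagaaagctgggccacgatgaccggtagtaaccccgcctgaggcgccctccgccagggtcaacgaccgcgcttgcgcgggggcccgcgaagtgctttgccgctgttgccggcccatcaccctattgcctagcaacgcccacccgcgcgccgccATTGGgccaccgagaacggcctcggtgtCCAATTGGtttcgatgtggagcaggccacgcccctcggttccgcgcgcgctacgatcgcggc
Msmo1 promoter: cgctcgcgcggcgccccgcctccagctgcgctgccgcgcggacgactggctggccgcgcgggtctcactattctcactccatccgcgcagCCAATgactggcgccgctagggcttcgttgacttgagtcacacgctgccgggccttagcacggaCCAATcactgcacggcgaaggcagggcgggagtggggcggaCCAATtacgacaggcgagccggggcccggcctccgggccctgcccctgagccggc
The Fasn stretch held 2 such places, which begin 90 and 62 bases before the start, and the latter reads as a CCAAT box on both strands. The Msmo1 stretch held 3, which begin 160, 96 and 55 bases before the start. Among the 32851 promoters of the table, 33.8% held at least 1 place, 9.91% at least 2 and 2.67% at least 3. A match describes letters and says nothing of binding in these livers.

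Of the 7680 clones, 29 (0.378%) passed an adjusted p of 0.05, 2 on the positive side and 27 (0.352%) on the negative side. Their adjusted p-values in limma lay between 0.0422 and 0.0471, close to the threshold, and 768 clones had an unadjusted p under 0.05. On the positive side the other clone was annotated with several genes and is not named. On the negative side 6 of the 27 were annotated with 1 gene and 21 with none. In all 1460 clones (19%) had 1 sign on all 4 arrays, 697 positive and 763 negative. No clone had a mean past a 2-fold difference, and 66 had an absolute log2 ratio above 0.5. A fit of genes, with the clones of a gene averaged first, called 7 of 4075 (0.172%), of which 6 were negative. The count of clones in limma was 0 when every printing block was centred on its own median (886 at an unadjusted p under 0.05) and 0 when every place within the blocks was (733 at such a p). It was 0 without the Fob3b-in-green array of pool pair 1 (823 at such a p) and 0 without that of pool pair 2 (510), but 122 without the Fob3b-in-red array of pool pair 1 and 202 without that of pool pair 2.

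On the negative side Snx32, a sorting nexin of endosomal transport, had the lowest mean of the annotated clones that passed. It read -0.41 and -0.95 in pool pair 1 and -0.45 and -0.87 in pool pair 2, averaging -0.67 ± 0.01 (SD, n = 2). Tanc2, a scaffold protein of synapses, had -0.34 and -0.91 in pool pair 1 and -0.57 and -0.68 in pool pair 2. The spots of this clone differed, with a mean of -0.39 for the upper spot and -0.86 for the lower. Azin1, which spares ornithine decarboxylase from degradation, had -0.27 and -0.98, then -0.42 and -0.80. In each of these the pool pairs gave nearly the same mean, while the arrays within a pool pair differed by dye orientation. Rps6ka5, a kinase of histones and CREB, had -0.29 and -0.76 in pool pair 1 and -0.55 and -0.63 in pool pair 2. Lrrc26, an auxiliary subunit of BK potassium channels, had -0.19 and -0.92, then -0.43 and -0.60. Tomm70a, an import receptor of the mitochondrial outer membrane, had -0.07 and -0.97, then -0.26 and -0.74. In all 6 genes both arrays with Fob3b in red lay below both arrays with Fob3b in green. Over the 27 negative clones that passed, the medians were -0.29 and -0.91 in pool pair 1 and -0.49 and -0.74 in pool pair 2, in the same order of dyes. The test rests on the spread between pool pairs, taken mostly over all clones together, which does not contain this spread between orientations. With each array as its own replicate 0 clones passed, and 806 had an unadjusted p under 0.05. With a dye term added it was also 0, and 924 had such a p.

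**Figure D1:**
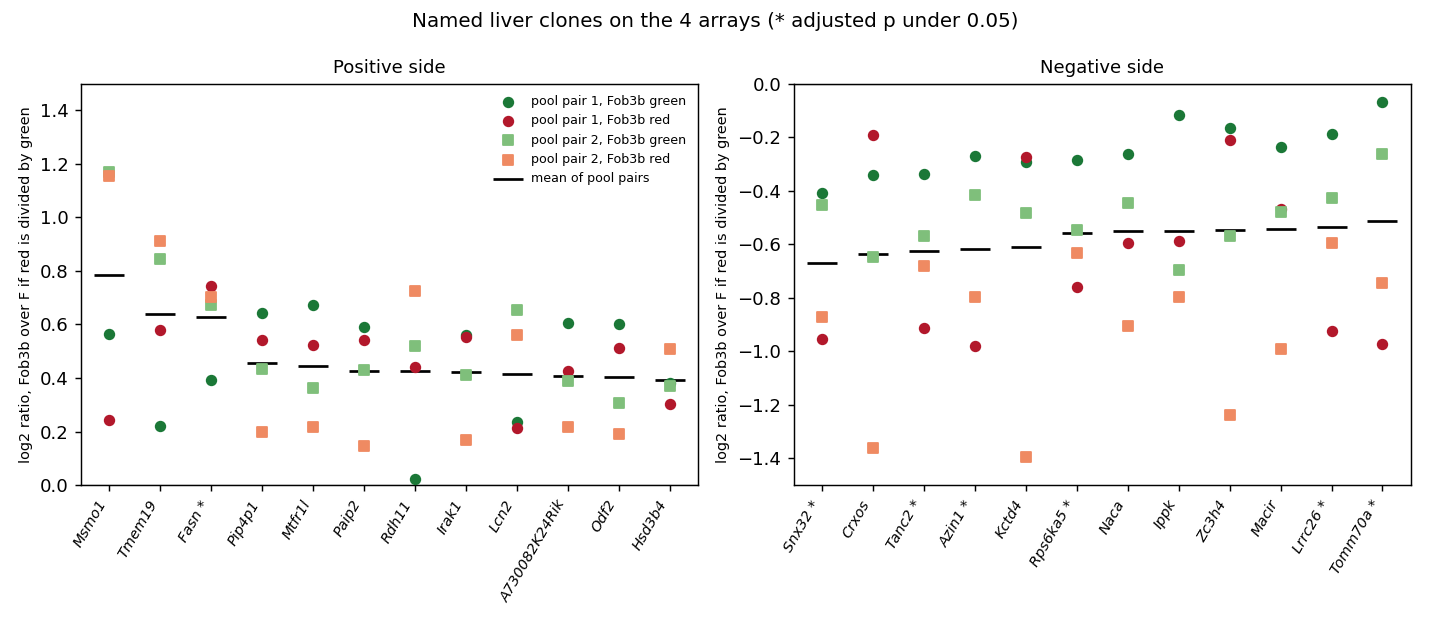
Log2 ratio of the 12 named clones of each side (x axis) on the 4 liver arrays (points) with the mean of the 2 pool pairs (bars); an asterisk marks an adjusted p under 0.05. Msmo1 and Tmem19 are higher in pool pair 2, Pip4p1, Mtfr1l, Paip2, Irak1, A730082K24Rik and Odf2 are higher in pool pair 1, and the negative clones that passed are lower with Fob3b in red.

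The other clones named on the positive side did not pass. Tmem19, a membrane protein gene, had 0.22 and 0.58 in pool pair 1 and 0.84 and 0.91 in pool pair 2, averaging 0.64 ± 0.34 (SD, n = 2). Its other clone, 27813, had 0.14 and -0.05, then 0.21 and 0.26. Rdh11, a retinol dehydrogenase of the endoplasmic reticulum, had 0.02 and 0.44, then 0.52 and 0.72. Lcn2, a siderophore-binding protein that rises in the acute phase response, had 0.24 and 0.21, then 0.65 and 0.56. Hsd3b4, of the 3-beta-hydroxysteroid dehydrogenase family, was the most even of these, with 0.38 and 0.30 in pool pair 1 and 0.37 and 0.51 in pool pair 2 (mean 0.39 ± 0.07, SD, n = 2). Tmem19, Rdh11 and Lcn2 thus shared with Msmo1 a higher reading in pool pair 2, and Hsd3b4 had pool pair means of 0.34 and 0.44.

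The remaining 6 named clones of the positive side had a profile of their own. They are Pip4p1, a phosphatase of phosphoinositides at the lysosome, Mtfr1l, a relative of mitochondrial fission regulators, Paip2, an inhibitor of the poly(A)-binding protein, Irak1, a kinase of interleukin-1 receptor signalling, A730082K24Rik, and Odf2, a centriole protein. All 6 were higher in pool pair 1, at 0.56 to 0.67 with Fob3b in green and 0.43 to 0.55 with Fob3b in red, than in pool pair 2, at 0.31 to 0.43 and 0.15 to 0.22. Their means ran from 0.40 for Odf2 to 0.45 for Pip4p1. On the array of Fob3b pool 2 against Fob3b pool 1 they lay between -1.73 and -1.32, and on the array of F pool 2 against F pool 1 between -0.24 and 0.17. Over the 10 arrays of the design, 15 other clones, 9 of them annotated with 1 gene, correlated with Pip4p1 above 0.95, and with Pip4p1 they lay in 14 printing blocks. This group was chosen after its values were seen and is a description. Among its annotated members were also Pdlim7 at 0.35, Bche at 0.34, Fcgbp at 0.32 and Rfc1 at 0.11. Rfc1 differed from the others in size, with -0.26 on the array of Fob3b pool 2 against Fob3b pool 1. Other clones of the same genes did not share the profile: Odf2 clone 25619 had a mean of -0.11, Mtfr1l clone 32786 had -0.11, and Paip2 clones 28212 and 28251 had -0.01 and 0.03.

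Of the negative clones that were named but did not pass, Crxos had -0.34 and -0.19 in pool pair 1 and -0.65 and -1.36 in pool pair 2. Kctd4 had -0.29 and -0.27, then -0.48 and -1.40. Zc3h4, a zinc finger protein gene, had -0.17 and -0.21, then -0.57 and -1.24. In these 3 the Fob3b-in-red array of pool pair 2 stood lowest. Ippk, the kinase that makes inositol hexakisphosphate, had a mean of -0.55 ± 0.28, and Macir had -0.54 ± 0.27 (SD, n = 2 each). Naca, a subunit of the complex that meets nascent polypeptides at the ribosome, had -0.55 ± 0.17 (SD, n = 2) in clone 25235. Its other clones, 24521 and 24975, had means of 0.23 and 0.08. Azin1 was split in the same way, with 0.15 in clone 28942 against -0.62 in the clone that passed.

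The negative clones lay close together in the printing order, which was read from the row order of the spots. A printing block had 160 places for clones. Places 13 to 20 were picked out after the values were seen, so the shares given for them are a description. Of the 27 negative clones that passed, 18 were printed at places 13 to 20, which held 5% of all clones, and 14 of the 29 stood next to another that passed. Block 18 held 7 of them and block 28 held 6. Snx32, Tanc2, Azin1 and Tomm70a, and among the clones that did not pass Naca, Ippk, Zc3h4 and Macir, were at these places, whereas 0 of the 12 named positive clones were. At places 13 to 20 the medians over the 48 blocks ran from -0.24 to -0.13, and at the other places from -0.07 to 0.06. Of the clones there 83.1% were negative, against 49.6% elsewhere. The median of these clones was -0.00 and -0.14 in pool pair 1 and -0.19 and -0.39 in pool pair 2. With the median of each place removed, Snx32 had -0.49, Tanc2 -0.44, Azin1 -0.43 and Tomm70a -0.32, while Rps6ka5, printed elsewhere, kept -0.55 and Fasn 0.62. The part of the printing place in the negative calls was not tested beyond these values.

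**Figure D2:**
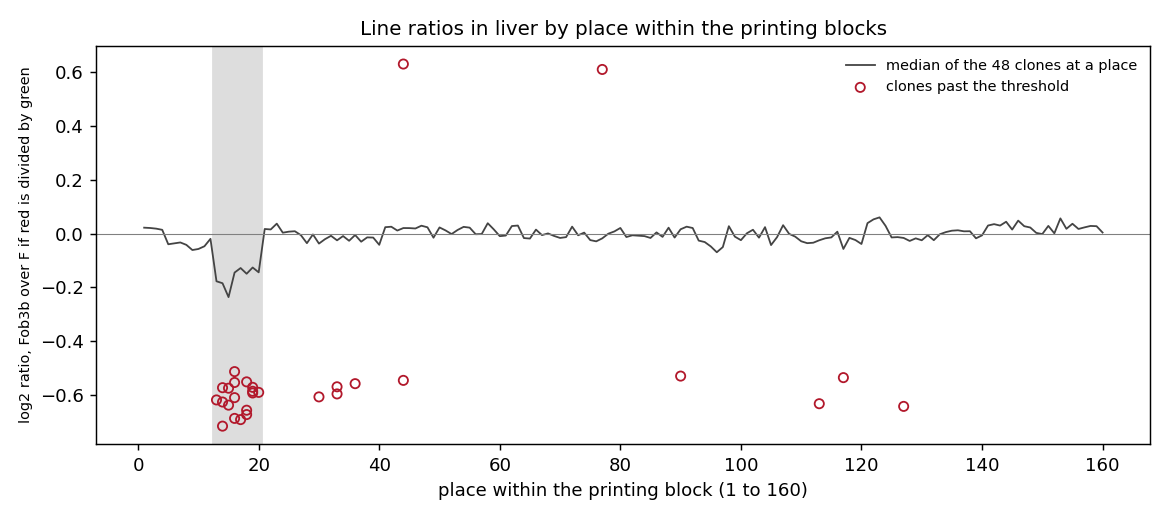
Median log2 ratio of the 48 clones at each place within the printing blocks (line; x axis, place 1 to 160) and the means of the 29 clones that passed (circles). The grey band marks places 13 to 20, where the line drops to between -0.24 and -0.13 and 18 of the 27 negative clones lie.

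Some genes were read by several clones. Of 650 such genes, 126 (19.4%) had all their clones on 1 side in both pool pairs, 79 positive and 47 negative. The genes named next were chosen among these 126, so the agreement of their clones is not a check. On the positive side, after Msmo1 and Tmem19, P4hb, the protein disulphide isomerase of the endoplasmic reticulum, had clone means of 0.28 and 0.27. Gstm2, a glutathione transferase, had 0.27 and 0.24. Tfg, a protein of endoplasmic reticulum exit sites, had 0.23 in both clones. Eif4e, the mRNA cap-binding factor, had 0.20, 0.23 and 0.24 in its 3 clones. Palld, of the actin cytoskeleton, had 0.26 and 0.15, and Ehd3, of endosomal recycling, had 0.19 in both. The pool pairs of Gstm2 and Tfg lay close, with SDs of 0.04 and 0.01 around gene means of 0.26 and 0.23, while P4hb was higher in pool pair 2.

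On the negative side Kctd4 led with clone means of -0.61 and -0.22. Baiap2l1, an adaptor between membranes and actin, had -0.34 and -0.28, and its gene mean of -0.31 ± 0.04 (SD, n = 2) was even over the arrays, from -0.36 to -0.20. Clmp, an adhesion molecule, had -0.33 and -0.21. The globin gene Hbb-b1 had -0.27 and -0.19, Btrc, the substrate receptor of a ubiquitin ligase, had -0.23 and -0.22, and Tomm20, another import receptor of mitochondria, had -0.24 and -0.19. Fbxo21 and St13, a partner of Hsp70, both had -0.21 as gene means. In the fit of genes, 0 of these 16 genes passed in limma and 16 had an unadjusted p under 0.05, which their choice by size favours, with adjusted p-values from 0.10 for Msmo1 to 0.45 for Ehd3.

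The sides of gene lists hold relative to the centre of the arrays. With no centring all genes shifted by about -0.36, and the 10 lists of at least 5 measured genes whose medians are positive after centring all turned negative. By function, the genes of fatty acid oxidation and ketogenesis lay on the negative side: 13 of 13 measured genes, with a median of -0.17, against 48.6% of all genes and a median of 0.00 over all 4075. In limma 0 of the 13 passed (0.172% of all genes did), and 5 of the 13 had an unadjusted p under 0.05, against 402 of all 4075 genes. Cpt1a, the liver carnitine palmitoyltransferase at the entry of mitochondria, had -0.86 and -0.28 in pool pair 1 and -0.38 and 0.05 in pool pair 2. Hsd17b4, of peroxisomal oxidation, had -0.34 and -0.42, then -0.12 and -0.14. Hadha, the trifunctional protein subunit, had -0.26 and -0.39, then -0.25 and -0.02. Acat1, the mitochondrial acetoacetyl-CoA thiolase, had -0.30 and -0.37, then 0.01 and -0.19. All 4 were lower in pool pair 1. Over the list, pool pair 1 had a median of -0.27 with 13 of 13 negative, and pool pair 2 had -0.08 with 9 of 13. The smallest differences were those of Acadl and Hadh, both -0.02. With blocks centred the median was -0.12 and 12 of 13 were negative. The 13 clones lay at other places than 13 to 20. With each array left out in turn the median stayed between -0.19 and -0.16. The crossed-pool arrays described below split, as labelled. With Fob3b in green 12 of the 13 were negative, at a median of -0.30, and with Fob3b in red 2 of 13, at 0.13. Brown adipose tissue of pool pair 1 had 12 of the 13 on the positive side, with a median of 0.19.

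Fatty acid and triglyceride synthesis did not move as a group. Of 8 measured genes 5 were positive and 3 negative, with a median of 0.05. Fasn passed, and its adjusted p in the fit of genes was 0.0147 in limma. Aacs, which activates acetoacetate for lipid synthesis, had 0.31 and 0.36 in pool pair 1 and 0.17 and 0.13 in pool pair 2. Dgat2, which adds the last acyl group to triglycerides, lay on the other side, with -0.49 and -0.39, then -0.31 and -0.17. Acsl5, an acyl-CoA synthetase, had a mean of 0.13. The regulator gene Srebf1 had -0.03 ± 0.03 and malic enzyme Me1 had 0.03 ± 0.06 (SD, n = 2 each). Of 5 genes that supply NADPH, 4 were positive, with Idh1, the cytosolic isocitrate dehydrogenase, highest at 0.23 ± 0.08 and Taldo1, the transaldolase, at 0.18 ± 0.01 (SD, n = 2 each). Besides Msmo1, 1 gene on the list of cholesterol synthesis was measured, Ggps1, with a mean of 0.01. Sqle, a candidate gene at the locus, was not among the annotated genes of this design, and of its 120 neighbours on the chromosome 12 were. Those 12 had a median of -0.00, and the largest of their differences was that of Fam91a1, at -0.38 ± 0.07 (SD, n = 2).

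**Figure D3:**
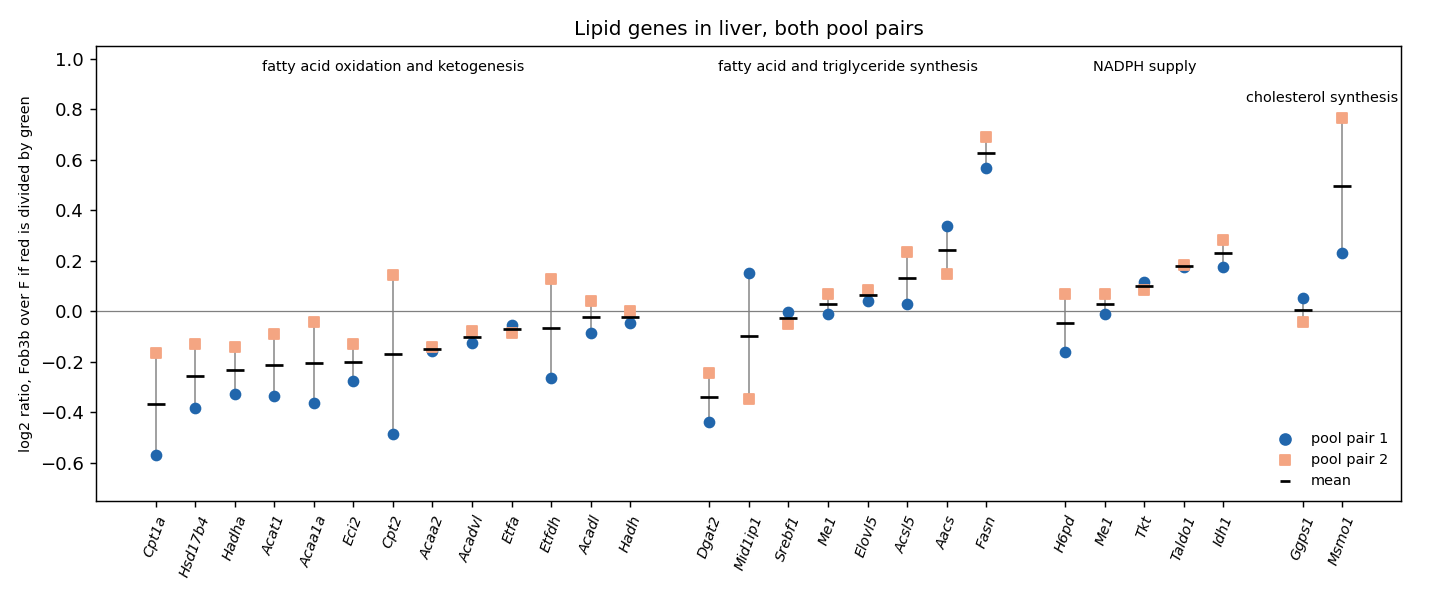
Log2 ratio of each measured gene of 4 lipid lists (x axis) in pool pair 1 (circles) and pool pair 2 (squares), with their mean (bars). All 13 means of fatty acid oxidation are below 0, mostly lower in pool pair 1, and Fasn stands above the other genes of fatty acid synthesis in both pool pairs.

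Genes of protein synthesis and turnover lay on the positive side by small amounts as means of the pool pairs, but not on every array. On the Fob3b-in-green array of pool pair 1, 31 of the 60 ribosomal and 8 of the 15 proteasome genes were negative. Of 60 genes of cytosolic ribosomal proteins 44 were positive, with a median of 0.08 (0.04 in pool pair 1 and 0.10 in pool pair 2), and 12 were positive on all 4 arrays against 2 negative on all 4. Among all genes 9.89% were positive and 9.15% negative on all 4. Rpl24 had 0.15 and 0.32 in pool pair 1 and 0.27 and 0.45 in pool pair 2, and Rpl23 had 0.18 and 0.28, then 0.26 and 0.38. Rps25 was opposite, between -0.23 and -0.19 on every array. Of 15 proteasome genes 14 were positive, with a median of 0.10 (pool pair 1 had 0.05, pool pair 2 had 0.17). The largest was Psmd11, of the regulatory lid, at 0.19 ± 0.09, followed by Psma4, of the core, at 0.18 ± 0.07 (SD, n = 2 each). With no centring the medians of these lists were -0.29 and -0.27, above the -0.36 of all genes. Of 28 genes of the respiratory chain and ATP synthase 23 were positive, at a median of 0.05. The pool pairs differed in this list: 16 of the 28 were negative in pool pair 1, at a median of -0.00, and 6 in pool pair 2, at 0.07.

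Chaperones were mixed, with 13 of 19 positive. Hsp90aa1, the stress-induced cytosolic Hsp90, had 0.04 and 0.36 in pool pair 1 and 0.49 and 0.61 in pool pair 2. Dnajb11, a co-chaperone of the endoplasmic reticulum, had -0.07 and 0.05, then 0.45 and 0.71. P4hb followed the same order, at -0.02 and 0.20, then 0.47 and 0.44. These 3 were higher in pool pair 2. Dnaja1, a cytosolic partner of Hsp70, had -0.34 and -0.73, then -0.22 and -0.15.

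Of 8 genes of mitochondrial import 7 were negative, with a median of -0.08. Tomm70a passed in the fit of clones and of genes. Tomm20 had a gene mean of -0.22 ± 0.12 and Tomm22 of -0.20 ± 0.01 (SD, n = 2 each), and all 3 receptors of the outer membrane were negative on all 4 arrays. With blocks centred the list counted 5 of 8 negative. Timm17b, of the inner membrane, had -0.11 and Timm22 had 0.08.

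Of the list of cytochrome P450 and phase II enzymes 9 genes were measured, 0 of them a cytochrome P450. They were glutathione transferases, Ephx1, the microsomal epoxide hydrolase, and Aldh1a1, a retinal dehydrogenase, and 7 of the 9 were positive, with a median of 0.13. The glutathione transferases led: Gstm4 had 0.27 and 0.32 in pool pair 1 and 0.31 and 0.46 in pool pair 2, and Gsta4 had 0.29 and 0.50, then 0.09 and 0.28. Gstm2 had a gene mean of 0.26, and Aldh1a1 had 0.36 and 0.49 but then 0.19 and -0.46. Transferases of 1 class have similar sequences, and how far a clone reads its relatives is unknown here. Of 13 genes of amino acid breakdown and the urea cycle 9 were positive. Oat, the ornithine aminotransferase, had 0.32 and 0.56, then 0.35 and 0.20, and Arg2, the mitochondrial arginase, had -0.32 and 0.01, then -0.30 and -0.90. Hibadh, of valine breakdown, had a mean of 0.22. In steroid metabolism and hormone reception, Esr1, the oestrogen receptor, had a gene mean of 0.23 ± 0.04 (SD, n = 2) over 3 clones. Ghr, the growth hormone receptor, had 0.13 ± 0.02 (SD, n = 2). As gene means both, with Hsd3b4, were positive on all 4 arrays. The Esr1 clones differed more than this SD shows. Clone 22105 rose from -0.04 for the first pool pair to 0.36 for the second, whereas clone 30757 fell from 0.29 to 0.03. Only clone 32556, with close pool pairs at 0.36 and 0.37, was itself positive on all 4 arrays.

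The remaining metabolic lists had no common side over both pool pairs. The citrate cycle had 5 of 11 genes positive and a median of -0.00, from 11 of 11 negative in pool pair 1, at a median of -0.08, and 3 of 11 in pool pair 2, at 0.07. Glycolysis and gluconeogenesis had 1 of 6 positive, Tpi1, the triosephosphate isomerase, at 0.25, and a median of -0.09. Cell cycle genes had 8 of 14 positive and a median of 0.01. In haem synthesis Alas1, the first and rate-limiting enzyme, had -0.60 and -0.20 in pool pair 1 and -0.80 and -0.54 in pool pair 2, a mean of -0.53 ± 0.19 (SD, n = 2) and an adjusted p of 0.0675 in limma. The next genes of that list, Urod and Ppox, had 0.09 and 0.07. Sterol and lipoprotein handling was represented by 4 genes, the largest of them Apoc2, an activator of lipoprotein lipase, at -0.14.

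Markers of cell types were few. Of 22 hepatocyte markers, 13 lymphocyte and 11 adipocyte markers 0 were measured, so the liver label could not be checked on this design, and a ratio gives no level in any case. Of 12 stellate cell and matrix markers 7 were measured, 6 of them negative with a median of -0.06 (0.02 in pool pair 1 and -0.14 in pool pair 2). Col1a1, a chain of collagen I, had 0.03 and -0.70 in pool pair 1 and -0.39 and -0.57 in pool pair 2, while Col1a2, the other chain, had a mean of -0.06 and Col3a1 of -0.02. The Kupffer cell markers C1qa and C1qb had -0.04 and 0.02, Stab1 of sinusoidal endothelium had -0.18, and Epcam of bile ducts had 0.04. Of the erythroid markers Hbb-b1 had -0.23, Alas2 -0.06 and Slc4a1 0.16. In such pools, fewer cells of a type and less RNA per cell cannot be told apart, and the part of cell makeup in the results was not tested.

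In the same fit, the line ratio in liver was compared with that in brown adipose tissue, a fat depot that burns fuel for heat, which on this design came from pool pair 1 alone. Brown adipose tissue thus had no replicate, and the fit assumed that its pool pair varied like those of liver, so these p-values rest on the spread in liver. Of 7680 clones 2 (0.026%) passed, and both lay on opposite sides in the tissues. Tst, the mitochondrial thiosulfate sulfurtransferase, had 0.30 and 0.17 in the liver pool pairs, but -1.43 and -1.70 on the brown adipose arrays. The difference was 1.80 (SE 0.15, n = 2 and 1 pool pairs, adjusted p of 0.00705 in limma). Alas1 had -0.40 and -0.67 in liver, but 1.11 and 1.18 in brown adipose tissue, a difference of -1.68 (SE 0.16, n = 2 and 1, adjusted p of 0.0143 in limma). With printing blocks centred, neither passed.

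The next clones by p in that comparison did not pass. Sdc4, a syndecan, had liver ratios of 0.23 and -0.05 against brown adipose ratios of -1.06 and -1.07. Net1, Cth, Cish, Slc12a2 and Lamb1 had differences of 0.67 to 0.85 on the same side. On the other side Me1, the malic enzyme that supplies NADPH, had liver ratios of 0.00 and 0.17 in clone 31450, whose brown adipose ratios were 1.34 and 1.06. Ccdc3, Chst12, Cryab and Nudt4 differed by -0.96 to -0.85. Cryab, a small heat shock protein, had liver ratios of -0.34 and -0.21 and brown adipose ratios of 0.61 and 0.66. Among these clones the liver ratios lay between -0.34 and 0.23, except for Cth, whose pool pair 1 read 0.52. Fasn, by contrast, had 1.23 and 0.73 in brown adipose tissue, on the same side as in liver, and the tissues differed by -0.35 with an adjusted p of 0.585 in limma. Over all clones pool pair 2 of liver correlated with brown adipose tissue at r = 0.56, and pool pair 1 of liver at 0.12, while the liver pool pairs correlated with each other at 0.23. These are correlations across 7680 clones, which share arrays of 1 print and are not independent.

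**Figure D4:**
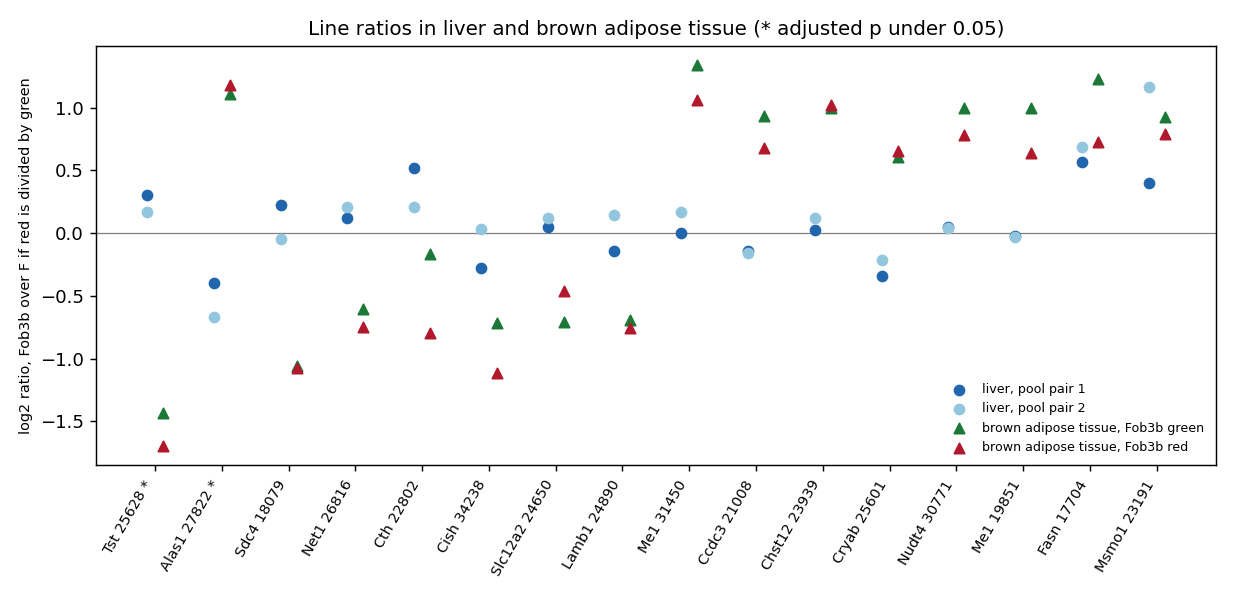
Log2 ratio in the 2 liver pool pairs (circles) and on the 2 brown adipose arrays of pool pair 1 (triangles) for the clones named in the tissue comparison, and for Fasn and Msmo1; the x axis gives gene and clone number, and an asterisk marks an adjusted p under 0.05. Tst and Alas1 lie on opposite sides of 0 in the tissues, Fasn on the same side.

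The same 4 liver pools were also hybridised crosswise on this design, on 1 array each, so these arrays share their RNA with the direct ones. The array labelled Fob3b pool 1 in green against F pool 2 in red gave Fasn 0.56, Msmo1 0.34 and Tmem19 0.46 in clones 17704, 23191 and 22777, all on the side of the direct arrays. The array labelled Fob3b pool 2 in red against F pool 1 in green gave them -0.33, -0.94 and -0.73. On it Alas1 had 1.21, against -0.27 on the other crossed array and -0.53 on the direct arrays, and Cpt1a had 0.68 against -0.69. The 12 named positive clones lay between -0.94 and -0.15 there. The 12 named negative clones lay between -0.42 for Zc3h4 and 0.49 for Tomm70a, and 9 of them were below 0. On the other crossed array the 12 named negative clones lay between -0.31 for Rps6ka5 and 0.26 for Zc3h4, and 7 of them were below 0. The 12 named positive clones ran there from -0.01 for Lcn2 to 1.70 for A730082K24Rik. The 6 clones of the Pip4p1 profile had 1.15 to 1.70, well above their direct means. Of the 27 negative clones that passed, 18 were below 0 on the Fob3b-in-red crossed array and 13 on the Fob3b-in-green one. The arrays within lines allow the same quantity to be put together from other slides: adding Fob3b pool 2 over pool 1 to pool pair 1 gave 0.75 for Msmo1 and -0.88 for Alas1, and adding F pool 2 over pool 1 to pool pair 2 gave 1.13 and -0.91. For Fasn these sums were 0.61 and 0.88. For the 6 clones of the Pip4p1 profile they were opposite, at -1.21 to -0.77 by the first sum and 0.06 to 0.46 by the second. With the labels as given, the crossed arrays correlated at -0.32 with each other over the clones. The Fob3b-in-red crossed array correlated at -0.15 with pool pair 1, 0.18 with pool pair 2 and 0.10 with the mean of these sums. The direction of the crossed arrays is therefore not settled. With its sign turned, the Fob3b-in-red crossed array has Fasn at 0.33, Msmo1 at 0.94 and Alas1 at -1.21. It then also has 9 of the 12 named negative clones above 0. Added to the test as labelled, the crossed arrays left 0 clones past the threshold and 615 at an unadjusted p under 0.05 in limma, and with that 1 array turned these were 0 and 555.

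**Figure D5:**
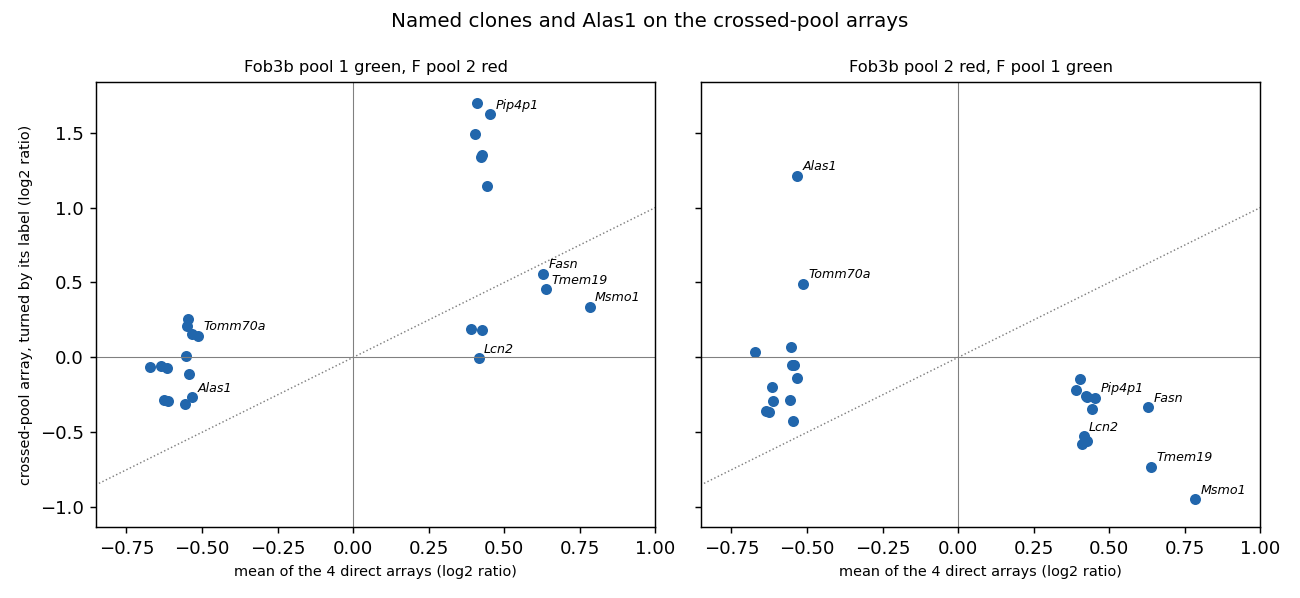
Log2 ratio of the 24 named clones and Alas1 on each crossed-pool array (y axis, turned by its label) against their mean over the 4 direct arrays (x axis); the dotted line marks equal values. On the array with Fob3b pool 1 in green Fasn, Tmem19 and Msmo1 are above 0, and on the array with Fob3b pool 2 in red they are below 0 and Alas1 is at 1.21.

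The first design, hybridised with pools of the same labels, held 7 of the named genes. Fasn had -1.40 and 0.22 in its pool pair 1 and 0.49 and 0.93 in its pool pair 2. Rdh11 had -0.84 and 0.26, then 0.27 and 0.94, so both genes lay on the positive side in pool pair 2 and were split by dye orientation in pool pair 1. Tanc2 had 0.06 to 0.67 over its 4 arrays there, opposite to the clone that passed. Azin1 had -1.23 and -0.31, then 0.15 and 0.40, and Tomm70a had -0.73 and -0.06, then -0.13 and 0.75. Crxos had a mean of 0.11 and Irak1 of -0.15. Over the 943 genes measured on both designs, 49.0% lay on the same side, and the designs correlated at r = -0.05. The designs were centred separately, and their values were not tested against each other.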

How the data were processed

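Total RNA of liver pools had been hybridised in competition on spotted cDNA arrays. Per the file headers, the authors deposited log2 ratios of the dyes (the base read from the values), 1 per spot and array. The sources used here do not give scanning, background, normalization or numerator. Arrays were centred on the median over their clone spots, the spots of a clone, 160 rows apart, were averaged, and ratios were turned by channel label. Control spots (1920 of 17280) were left out. Dye swaps were averaged per pool pair and tested against 0 with limma 3.58.1 in R 4.3.3 (1 residual and 7.63 prior degrees of freedom), two-sided, with Benjamini-Hochberg adjustment over all clones. The tissue contrast was fitted with the brown adipose pool pair. The steps were tested on simulated data.

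Named were annotated clones past the threshold, filled to 12 a side by absolute mean among those of 1 sign on 4 arrays, 8 genes a side with several agreeing clones, and up to 4 genes a list. Further list members, Pdlim7, Bche, Fcgbp and Rfc1 were named after their values were seen. Members, lists and rule were chosen with earlier results of these data known. Replicates share only a pool number, and the lines are paired by hybridisation.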

Additional observations from a re-analysis of the deposited data

Results flagged for a closer look

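Tst and Alas1 stood out because the line ratio differed between liver and brown adipose tissue in the fit of the difference. That fit assumed that brown adipose tissue, which had 1 pool pair and so no replicate, varied like liver. For Tst the difference of liver minus brown adipose tissue was 1.80 and for Alas1 it was -1.68, with adjusted p-values of 0.00705 and 0.0143 in limma. Both liver pool pairs lay on 1 side and both brown adipose arrays on the other. Among the 24 named clones, no array stood apart from the other 3 at Dixon's 95% critical value for the gap over the range. Kctd4, with a gap of 0.812 of the range, and Fasn, with 0.807, came nearest to it.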

How the results depend on the processing

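The 24 named clones and Alas1 kept their sign under the alternatives run. All of them had 1 sign on the 4 arrays, so leaving out or rescaling arrays could not turn it. The count in limma of liver clones past the threshold, 29 in the main setting, did not hold. It was 0 with printing blocks centred, with each array as its own replicate, with a dye term, with crossed-pool arrays added, with the upper spot of each clone alone, and, chosen after seeing the data, with arrays scaled to a common median absolute deviation, with places within blocks centred and with 1 crossed array turned. Centring nothing gave 159, all negative, and averaging clones per gene gave 7. Leaving out 1 array gave 0 to 202. Without the replicate block, in a fit of 4 RNA pools to all 8 liver arrays, 0 clones passed and 156 had an unadjusted p under 0.05; crossed-pool and within-line arrays enter that fit too. The counts were 36 with arrays scaled to a common SD, 39 with the lower spot, 33 with a robust prior and, also chosen after seeing the data, 25 with arrays centred on the median of clone means. Fasn passed in 6 of 18 alternatives, with an adjusted p in limma of 0.00102 to 1. The tissue contrast gave 2 clones, 1 with no centring, 0 with blocks centred, where 750 had an unadjusted p under 0.05, and 2 with scaled arrays. The causes were not tested. Without intensities, signal over background is unknown.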
